A study of Homo sapiens with 18 samples.

Results

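Serpins are a family of protease inhibitors, and their mRNAs were measured in MDA-MB-231, a triple-negative breast cancer cell line, after knockdown of EZH2 or E2F1 or after inhibition of the EZH2 methyltransferase. The genes were chosen by name, as all protein-coding genes whose GENCODE symbol is SERPIN followed by a clade letter from A to I and a number. This rule gave 35 genes of the 62703 gene identifiers in the data, and it used no measured value. The RNA-seq data comprise 10 distinct libraries of polyadenylated RNA in 5 groups of 2. Cells of 3 groups were exposed to lentivirus for 24 h and then to puromycin at 2 μg/ml for 72 h, and carried Control shRNA, shEZH2 or shE2F1 from a pLKO.1 vector. Cells of the other 2 groups were not transduced and received DMSO or GSK126, an inhibitor of EZH2 catalysis, at 1 μM for 72 h. The labels give 1 shEZH2 and 1 shE2F1 name, so an effect of a hairpin on other transcripts and an effect of losing its target cannot be told apart. Nothing in the labels says that the 2 replicates of a group came from separate cultures, so the p-values measure only the spread between these libraries, which may be technical.

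A serpin presents an exposed loop that a protease cleaves as if it were a substrate, and the serpin then changes shape and traps the protease in a covalent complex. Clade A holds the secreted plasma inhibitors of the liver, such as the elastase inhibitor SERPINA1, while clade B holds intracellular inhibitors of granule and lysosomal proteases. SERPINE2 of clade E and SERPINB2 of clade B are known to block plasminogen activators. Not all members inhibit proteases, as SERPINH1 (HSP47) is a chaperone of collagen in the endoplasmic reticulum.

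The total expected counts per library ranged from 13198932 (shEZH2 replicate 1) to 20055550, and 3 counts corresponded to 0.150 to 0.227 CPM by the unscaled library total. All other CPM (counts scaled to library size) were scaled by the TMM method. The hairpin targets followed their labels. EZH2 was at 153 and 181 CPM in Control shRNA, 52.6 and 44.8 in shEZH2, 121 and 137 in shE2F1, 123 and 126 in DMSO and 133 and 142 in GSK126. E2F1 was at 143 and 138 CPM in Control shRNA, 26.0 and 22.5 in shE2F1, 83.7 and 108.4 in DMSO and 102 and 118 in GSK126, and it was also low in shEZH2, at 62.4 and 32.3 CPM. The 5 markers of a mesenchymal breast cancer line (VIM, CD44, MSN, CAV1, AXL) summed to 4171 to 5328 TPM (reads scaled by transcript length and library size) outside shEZH2 and to 2650 and 2876 TPM in shEZH2. Of the 6 luminal breast markers, the receptor genes ESR1 and PGR were at 0 to 0.17 TPM and at 0 in all libraries. The other luminal markers were detected, with means of 1320 TPM (KRT8), 1145 (KRT18), 30.2 (ERBB2) and 9.82 (GATA3). The luminal list summed to 2086 to 2785 TPM.

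Of the 34 serpins described here, 13 had enough reads to be tested in at least 1 comparison. They comprised 2 of 11 clade A members, 6 of 13 clade B members and 5 of the 10 members of clades C to I. The other 21 were at or near 0. Of these, 10 had no counts in any library (SERPINA2, SERPINA4, SERPINA6, SERPINA7, SERPINA11, SERPINA12, SERPINB11, SERPINB12, SERPINB13 and SERPINE3), which allows up to 3 counts per library. A further 11 had at most 11 counts in any library and at most 0.62 TPM: SERPIND1, SERPINB5, SERPINC1, SERPINA5, SERPINB4, SERPINF1, SERPINA9, SERPINA10, SERPINB3, SERPINB10 and SERPINI2. SERPINB5 (maspin), known from normal mammary epithelium, had at most 7 counts, and antithrombin (SERPINC1) at most 6.

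The members also lie together in the genome (GRCh38). On chromosome 18, 10 clade B genes lie within 543 kb (chr18:63476958-64019779), of which only SERPINB7, SERPINB2 and SERPINB8 had enough reads to test. On chromosome 14, 10 clade A genes lie within 344 kb (chr14:94280460-94624055), with SERPINA1 and SERPINA3 tested. On chromosome 6, SERPINB1, SERPINB9 and SERPINB6 lie within 140 kb (chr6:2832332-2972165), and all 3 were tested.

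RefSeq promoter windows (GRCh38.p14, 250 bases before to 50 after each annotated start) were found for 27 of the 34 members, 41 windows in all. SERPINA2, SERPINB10, SERPINB11, SERPINC1, SERPINF1, SERPINF2 and SERPING1 had no entry. The windows shown are those of the 3 expressed members of the chromosome 18 cluster and of SERPINB1, since the results turn on these genes. Capitals mark matches to TGANTCA (the AP-1 element), TATAAA or GGGCGG (the GC box, on either strand). Of 3 SERPINB7 windows, the most downstream is printed.
SERPINB7, chr18:63777531-63777830, plus strand: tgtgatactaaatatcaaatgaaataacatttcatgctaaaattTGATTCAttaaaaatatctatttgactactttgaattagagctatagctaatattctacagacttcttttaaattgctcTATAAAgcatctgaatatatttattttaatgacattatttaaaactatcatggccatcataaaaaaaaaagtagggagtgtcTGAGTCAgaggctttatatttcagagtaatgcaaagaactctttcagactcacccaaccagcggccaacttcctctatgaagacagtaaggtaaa
SERPINB2, chr18:63887455-63887754, plus strand: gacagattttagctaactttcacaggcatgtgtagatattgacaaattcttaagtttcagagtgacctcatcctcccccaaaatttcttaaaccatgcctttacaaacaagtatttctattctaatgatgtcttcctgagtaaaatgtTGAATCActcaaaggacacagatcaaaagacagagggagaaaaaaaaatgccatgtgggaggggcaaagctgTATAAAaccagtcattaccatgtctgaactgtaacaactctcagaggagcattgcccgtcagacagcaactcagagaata
SERPINB8, chr18:63969831-63970130, plus strand: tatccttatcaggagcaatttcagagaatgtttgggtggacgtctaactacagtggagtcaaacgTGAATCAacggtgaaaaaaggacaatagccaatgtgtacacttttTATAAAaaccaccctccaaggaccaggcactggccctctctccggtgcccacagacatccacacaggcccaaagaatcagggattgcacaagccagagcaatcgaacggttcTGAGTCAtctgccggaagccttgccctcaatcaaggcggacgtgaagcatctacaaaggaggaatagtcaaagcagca
SERPINB1, chr6:2841814-2842113, minus strand: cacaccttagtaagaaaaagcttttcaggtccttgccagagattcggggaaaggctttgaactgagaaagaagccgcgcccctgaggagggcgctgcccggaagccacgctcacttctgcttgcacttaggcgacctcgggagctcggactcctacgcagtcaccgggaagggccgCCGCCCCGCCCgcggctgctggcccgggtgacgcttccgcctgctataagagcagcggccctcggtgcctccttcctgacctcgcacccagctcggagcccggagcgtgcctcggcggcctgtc

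TGANTCA, which reads the same on both strands, was found in 9 of the 41 windows, from 8 members. It stands in 7.71% of all 35116 windows of this length. In the printed SERPINB7 window it began 206 and 45 bases before the start, in another 154 and 39 bases before it, and the window at the gene's first annotated start held none. In SERPINB2 it began 102 bases before it, and in SERPINB8 185 and 28 bases before it. The same letters were in windows of the untested cluster members SERPINB5, SERPINB12 and SERPINB13 and of SERPINE3 and SERPINI2, and not in those of the other 8 tested members that had a window. The GC box GGGCGG was in 12 windows from 9 members, against 45.0% of all windows, and 6 of the 11 tested members with a window held it. SERPINB1 had overlapping matches beginning 74 and 69 bases before its start. TATAAA, sought only in the direction of transcription, was in 10 windows against 7.33% of all. In SERPINB2 it began 30 bases before the start. The E2F words TTTCCCGC, TTTCGCGC, TTTGCCGC and TTTGGCGC, sought on both strands, were in none of the 41 windows and in 3.31% of all. The SERPINB2 window held 1 CpG and the printed SERPINB7 window 1, whereas the SERPINB1 window held 27, and the median over all windows was 14. The matches are letters in these windows and do not show that a factor binds there.

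The serpins differed widely in level. TPM, which accounts for gene length, allows genes to be compared. SERPINH1 had a mean of 259 TPM (range 227 to 289), followed by the cathepsin G inhibitor SERPINB6 (142, 93.1 to 189) and the neutrophil elastase inhibitor SERPINB1 (82.1, 27.2 to 134). These 3 kept this order, above SERPINB9, in all 10 libraries. Below them came the granzyme B inhibitor SERPINB9 (mean 24.6 TPM), SERPINE2 (19.2), SERPINB7 (16.4), the furin inhibitor SERPINB8 (13.9) and SERPINA1 (10.6). These 5 changed places between libraries, as SERPINB9 exceeded SERPINE2 in 8 libraries, SERPINE2 exceeded SERPINB7 in 7, SERPINB7 exceeded SERPINB8 in 4 and SERPINB8 exceeded SERPINA1 in 5. The remaining tested members averaged 0.522 to 1.39 TPM: SERPINB2 (PAI-2), the neuronal SERPINI1 (neuroserpin), the C1 inhibitor SERPING1, the acute-phase SERPINA3 and the plasmin inhibitor SERPINF2.

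**Figure D1:**
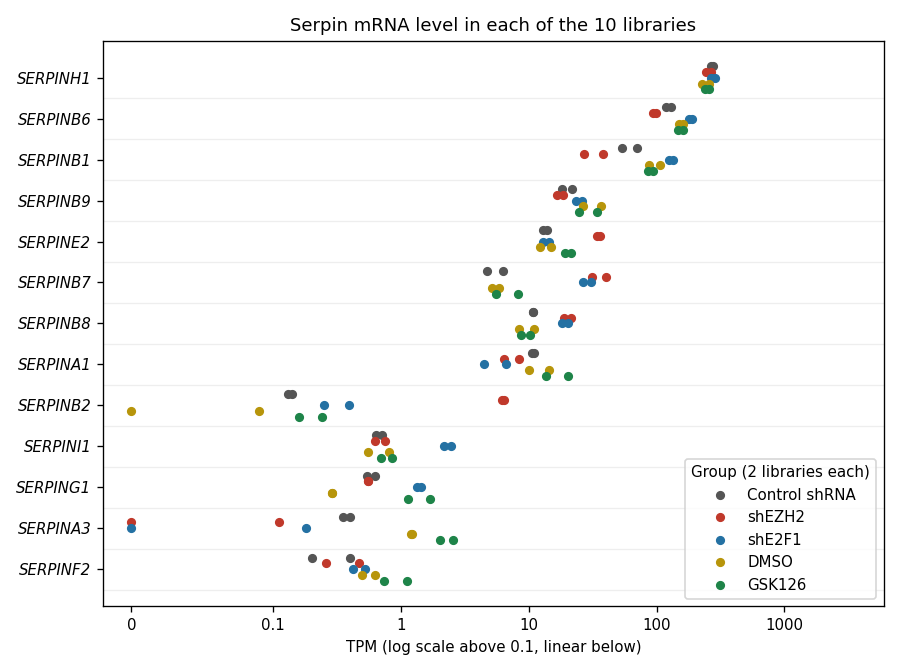
TPM of 13 tested serpins in each of the 10 libraries, ordered by mean level, on an axis that is logarithmic above 0.1 and linear below it. Each point is a library. SERPINH1 lay between 227 and 289 TPM in all 10 libraries, while SERPINB2 stood at 6.38 and 6.13 TPM in shEZH2 and at 0 to 0.39 TPM in the other 8.

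Knockdown of EZH2 asks which genes depend on the protein. In shEZH2 against Control shRNA, SERPINB2, SERPINB7 and SERPINE2 rose and SERPINB1 fell. A serpin was called changed when edgeR's quasi-likelihood test gave a Benjamini-Hochberg adjusted p under 0.01 and the change was over 2-fold. By this rule 3 of the 12 tested members were called higher and 1 lower, whereas 7.52% of the 15373 genes tested were called higher and 10.7% lower. The 12 include SERPINB2, which passed the filter on low counts only through the shEZH2 libraries, and SERPING1, which passed only through shE2F1. The median log2 change of the 12 members was −0.37, against −0.023 over all genes tested. In bulk RNA, a change in the share of cells that express a gene and a change in RNA per cell cannot be told apart.

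SERPINE2 (protease nexin-1) inhibits thrombin and PLAU at the cell surface. It was at 18.7 and 20.8 CPM in Control shRNA, 41.3 and 47.5 in shEZH2, 15.9 and 18.3 in shE2F1, 16.7 and 21.6 in DMSO and 26.3 and 29.8 in GSK126. The shEZH2 libraries were the highest and the GSK126 libraries came next, without overlap. The log2 change in shEZH2 was 1.16 ± 0.13 (edgeR adjusted p = 3.4e-05, n = 2 against 2, as in each comparison of 2 groups; errors of log2 changes are SE). When GC content and gene length were entered as an offset it was 0.85, still with an adjusted p of 0.000161 (2.12e-14 to 0.00033 over all alternatives) but under 2-fold, so the call was lost.

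SERPINB2 (PAI-2), another inhibitor of PLAU, was close to undetected except in shEZH2. Its expected counts were 1 and 3 in Control shRNA, 91 and 119 in shEZH2, 9 and 4.94 in shE2F1, 2 and 0 in DMSO and 1 and 5 in GSK126. The shEZH2 libraries held 210 counts and the Control shRNA libraries 4, a depth-adjusted ratio of 63.5 (exact 95% interval 24.4 to 235, counting error only). The edgeR log2 change was 5.83 ± 0.48 (adjusted p = 6.16e-06). It was 5.18 without Control shRNA replicate 1 and 6.83 without Control shRNA replicate 2, so its size rested on the few control counts. Part of the gene overlaps ENSG00000289724, a protein-coding annotation on the same strand, and the RSEM posterior SD of its counts was at most 2.2.

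SERPINB7, known from the epidermis, has its annotated start 119 kb before that of SERPINB2. It was at 5.77 and 8.46 CPM in Control shRNA, 45.0 and 37.9 in shEZH2, 31.9 and 33.0 in shE2F1, 6.26 and 7.91 in DMSO and 6.85 and 9.96 in GSK126. All 4 libraries of the target hairpins stood above the other 6, with no overlap. The log2 change was 2.53 ± 0.17 in shEZH2 (edgeR adjusted p = 2.42e-06). SERPINB8, whose start lies 217 kb beyond that of SERPINB7, was at 17.1 and 18.6 CPM in Control shRNA and 29.7 and 33.4 in shEZH2, a log2 change of 0.81 that was under 2-fold and not called. Its 25.3 and 26.5 CPM in shE2F1 lay between these groups, and DMSO (16.9 and 16.5) and GSK126 (16.5 and 18.5) lay with the controls. SERPINB8 overlaps HMSD on the same strand, and the RSEM posterior SD of its counts was at most 2.67. The 7 other members of the cluster stayed at or below 0.62 TPM in all 10 libraries. The keratinocyte markers KRT1, KRT5, IVL and LORICRIN were at 0 in every library. The summed keratinocyte list, nearly all KRT10, was 60.0 and 62.0 TPM in shE2F1 and 26.3 to 35.4 TPM in the others, and its part in these results was not tested.

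**Figure D2:**
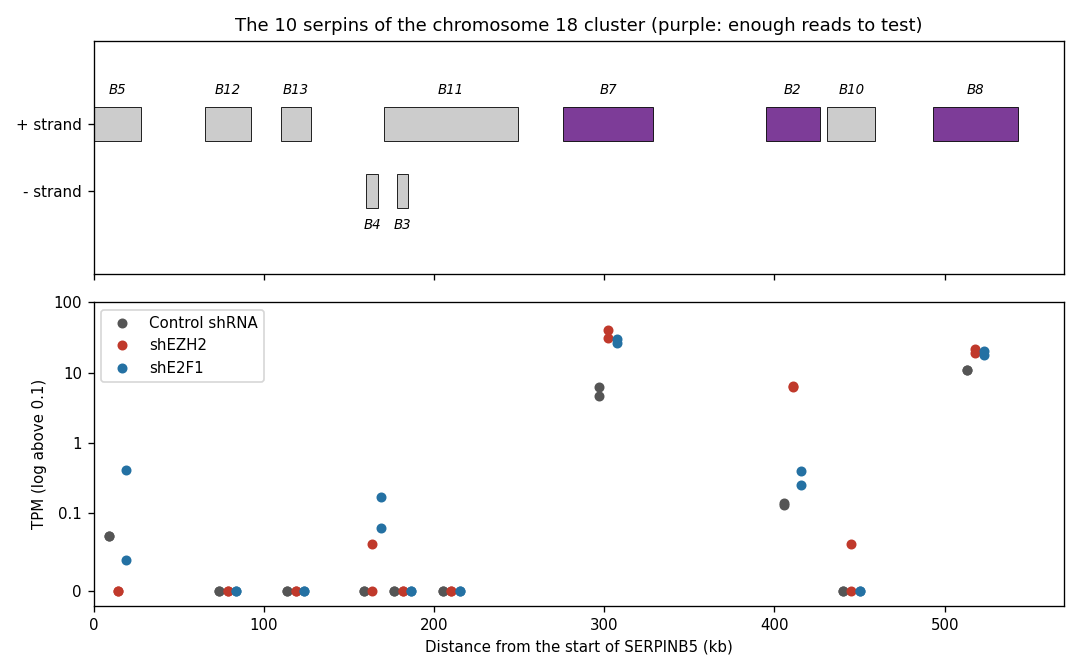
The serpin cluster of chromosome 18 drawn to scale by distance from the start of SERPINB5 (top, bars are genes, purple where reads allowed a test) and TPM of each gene in the Control shRNA, shEZH2 and shE2F1 libraries (bottom, logarithmic above 0.1). SERPINB7 rises in both knockdowns, SERPINB2 reaches 6.38 and 6.13 TPM in shEZH2, and the 7 grey genes stay at or below 0.62 TPM.

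SERPINB1 inhibits the neutrophil serine proteases and was the called member that fell. It was at 88.8 and 72.9 CPM in Control shRNA, 38.2 and 33.6 in shEZH2, 141 and 140.0 in shE2F1, 134 and 118 in DMSO and 125 and 114 in GSK126. The shEZH2 libraries were the lowest of all and the shE2F1 libraries the highest. Its log2 change in shEZH2 was −1.19 ± 0.12 (edgeR adjusted p = 1.85e-05). The neighbours on chromosome 6 were not called: SERPINB6 had a log2 change of −0.54, from 111 and 107 CPM to 73.6 and 77.5, and SERPINB9 one of −0.38, from 59.8 and 53.4 CPM to 40.5 and 46.9. Neutrophil and lymphocyte markers summed to at most 0.57 TPM in any library, and 6 of the 8 (among them ELANE, CTSG, MPO and GZMB) were at 0 in all.

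The remaining members tested in shEZH2 were not called. SERPINH1 was at 329 and 365 CPM in Control shRNA, 252 and 284 in shEZH2, 301 and 314 in shE2F1, 269 and 335 in DMSO and 280.4 and 332 in GSK126, with a log2 change of −0.38 in shEZH2. SERPINA1 had a log2 change of −0.78, with 10.3 CPM in both Control shRNA libraries and 4.97 and 7.02 in shEZH2. SERPINI1, SERPING1 and SERPINF2, each with at most 12 counts in the 4 libraries compared, had log2 changes of −0.50, −0.36 and 0.04.

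**Figure D3:**
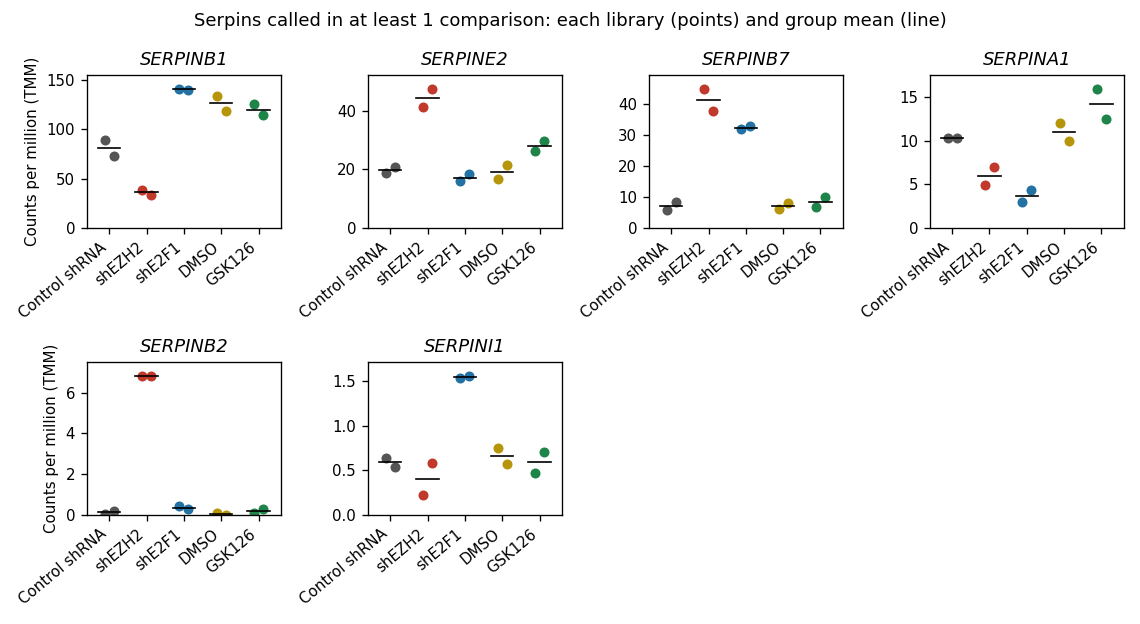
CPM, scaled by TMM, of the 6 serpins called in at least 1 comparison. Each point is a library and each line a group mean, and every axis starts at 0. SERPINE2 and SERPINB2 are highest in shEZH2, SERPINB7 is high in shEZH2 and shE2F1, and SERPINB1 is lowest in shEZH2 and highest in shE2F1.

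Knockdown of E2F1 gave fewer calls. In shE2F1 against Control shRNA, SERPINB7 rose and SERPINA1 fell. These were 1 of 12 members called higher and 1 lower, where 5.6% of the 15373 genes were called higher and 5.96% lower. The median log2 change of the 12 was 0.49, against −0.00049 over all genes. Both knockdowns are compared with the same Control shRNA libraries, so their values are given side by side and not as independent results. SERPINB7 changed by 2.19 ± 0.17 on the log2 scale (edgeR adjusted p = 5.74e-06), beside 2.53 in shEZH2.

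SERPINA1 (alpha-1 antitrypsin) inhibits neutrophil elastase. It was at 10.3 CPM in both Control shRNA libraries, 3.02 and 4.31 in shE2F1, 4.97 and 7.02 in shEZH2, 12.1 and 9.94 in DMSO and 16.0 and 12.5 in GSK126. The shE2F1 libraries were the lowest, and no target hairpin library reached a library without a target hairpin. The log2 change in shE2F1 was −1.50 ± 0.24 (edgeR adjusted p = 0.000489). Without shE2F1 replicate 1 it was −1.26 with an adjusted p of 0.0105, above the threshold of 0.01, so the call was lost (8.99e-10 to 0.0105 over all alternatives). Hepatocyte markers, including ALB and TTR, summed to at most 0.64 TPM in any library.

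The other 10 tested members were not called in shE2F1. SERPINE2 had a log2 change of −0.22, beside 1.16 in shEZH2. SERPINB1 had 0.79, beside −1.19, SERPINB6 0.44, beside −0.54, and SERPINB8 0.53, beside 0.81. SERPINB6 was at 148 and 149 CPM in shE2F1, above every other library, with 135 and 133 in DMSO and 130.0 and 129 in GSK126. SERPINB9 was at 58.8 and 63.6 CPM in shE2F1, near its controls, and at 96.3 and 76.4 in DMSO and 90.1 and 69.5 in GSK126. Low-count members were SERPINI1, with 32 and 29 counts in shE2F1 against 12 and 9 in Control shRNA (log2 change 1.37), and SERPING1, with 24 and 22 against 5 and 11 (1.34). SERPINB2 held 14 counts in shE2F1 against 4 in Control shRNA, a ratio of 3.57 (exact 95% interval 1.12 to 14.9, counting error only).

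The direct comparison of the knockdowns asks whether the members respond differently to the EZH2 and E2F1 hairpins. E2F1 mRNA was itself lower in shEZH2 than in Control shRNA (log2 change −1.59 ± 0.23, edgeR adjusted p = 0.000172). The comparison therefore does not set loss of EZH2 alone against loss of E2F1. In shEZH2 against shE2F1, 2 of 12 members were called higher and 2 lower, where 10.4% and 12.9% of the 15373 genes were called higher and lower. SERPINB2 was higher by 4.24 ± 0.39 on the log2 scale (edgeR adjusted p = 6.61e-06) and SERPINE2 by 1.38 ± 0.13 (adjusted p = 7.32e-06). Of these, SERPINB2 entered the test only because its shEZH2 libraries passed the filter on low counts. SERPINB1 was lower, with a log2 difference of −1.98 ± 0.12 (adjusted p = 4.58e-07). SERPINI1, which inhibits PLAT in the nervous system, was at 3 and 10 counts in shEZH2 and 32 and 29 in shE2F1, a log2 difference of −1.88 ± 0.49 (edgeR adjusted p = 0.00699). This last call was lost in 7 of 13 alternatives, including DESeq2 (adjusted p = 0.041, with 0.000861 to 0.0566 over all alternatives) and each omission of a library, and the difference was −2.73 when shEZH2 replicate 2 was left out and −1.42 when replicate 1 was. The summed list of 4 neuron markers was 1.05 and 1.16 TPM in Control shRNA, 1.86 and 2.44 in shEZH2, 3.59 and 3.83 in shE2F1 and 1.84 to 2.80 with DMSO or GSK126, nearly all SYT1 with STMN2 at 0 in all libraries, and its part in this result was not tested. SERPINB7, called in both knockdowns, differed between them by 0.35 and was not called. The median log2 difference was −0.27 over the members and −0.020 over all genes.

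Treatment with GSK126 asks what follows when EZH2 stays but its methyltransferase is blocked. In GSK126 against DMSO, none of the 12 serpins tested was called, and the background was also 0% of the 14632 genes tested with edgeR. DESeq2 called 11 genes in this comparison and none of the members. At an unadjusted p under 0.05 there were 3 members and 577 genes. The median log2 change was 0.16 over the members and −0.0052 over all genes.

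The 3 members with the smallest unadjusted p were SERPING1, SERPINE2 and SERPINA3. Each had an edgeR adjusted p of 0.999975 in the main fit, which had no replicate block. With the GC and length offset and no block, the edgeR adjusted p was 0.483, 0.557 and 0.533. With a block on the replicate number, the edgeR adjusted p was 0.0327, 9.91e-06 and 0.0428, and none was called. That fit gave 1990 of all genes an adjusted p under 0.05, and no label ties the replicate numbers to a shared batch. SERPING1 (C1 inhibitor), which controls complement and contact activation, had 5 and 6 counts in DMSO and 20 and 15 in GSK126, a log2 change of 1.79 ± 0.48, and it passed the filter only through GSK126. SERPINE2 was at 16.7 and 21.6 CPM in DMSO and 26.3 and 29.8 in GSK126, a log2 change of 0.55 ± 0.16. SERPINA3 (alpha-1 antichymotrypsin) had 19.83 and 16 counts in DMSO and 35 and 34 in GSK126, a log2 change of 1.08 ± 0.32. In each of the 3, both GSK126 libraries stood above both DMSO libraries. The 3 were picked by their p in this same comparison, so this separation adds no support to a change. SERPINA3 had at most 6 counts in any of the 6 transduced libraries, too few for a test there, and it overlaps ENSG00000273259, a protein-coding annotation on the same strand. SERPINB7 had a log2 change of 0.25 with GSK126, SERPINB1 one of −0.08, SERPINH1 one of 0.02 and SERPINA1 one of 0.37, and none of these was called.

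**Figure D4:**
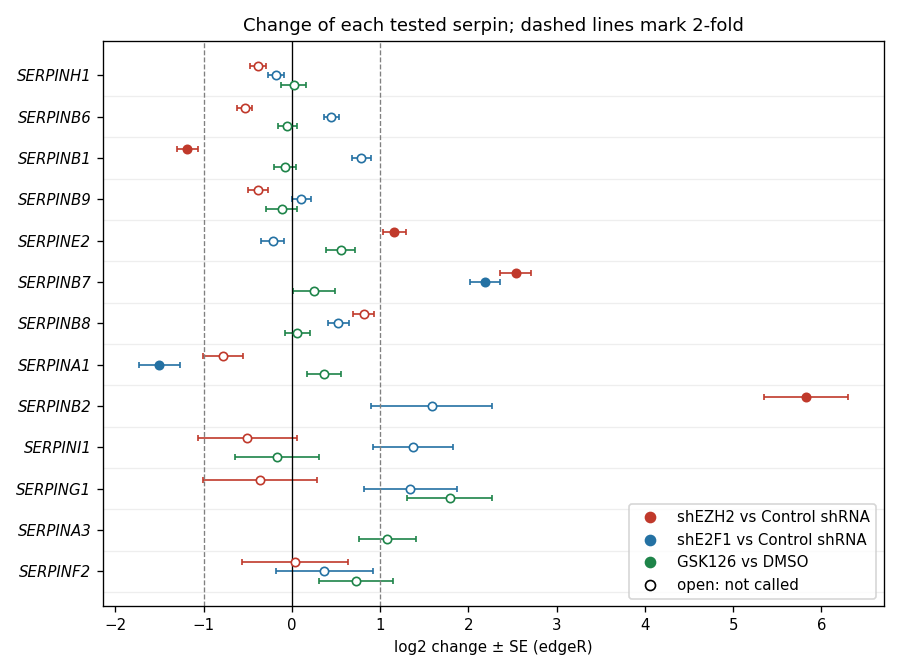
log2 change with its SE from edgeR for 13 tested serpins in shEZH2 and shE2F1 against Control shRNA and in GSK126 against DMSO. Filled points were called, open points were not, and dashed lines mark 2-fold. SERPINB2 has the largest change, 5.83 in shEZH2, SERPINB1 points in opposite directions in the knockdowns, and all points of GSK126 are open.

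The difference between losing EZH2 and inhibiting it was tested directly, as the shEZH2 effect minus the GSK126 effect in a fit of all 10 libraries. Of 13 members tested, 1 was called higher and 1 lower, where 5.13% and 8.67% of the 15773 genes were called higher and lower. SERPINB7 had a log2 difference of 2.30 ± 0.31 (edgeR adjusted p = 0.000211). SERPINB1 had −1.10 ± 0.18 (adjusted p = 0.000634), which was under 2-fold without Control shRNA replicate 1 (−0.96) and with effective gene lengths as an offset (−0.99). SERPINE2, called in shEZH2, was not called here (0.62), and neither was SERPINB2 (4.23), with its few counts outside shEZH2. The knockdown and drug experiments also differ in transduction, selection and controls, which cannot be told apart from their agents in this difference. The median log2 difference was −0.39 over the members and −0.030 over all genes.

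Proteases, receptors, other inhibitors and partners from processes in which serpins act were described in 8 lists of other genes. Not every protease in these lists is a known serpin target. Of 115 genes, those named below passed the same call rule, at most 3 per list and direction. Plasminogen activation is the process that SERPINE2 and SERPINB2 restrain. In shEZH2, 1 of 6 tested genes of this list was higher and none lower (median −0.14), and in shE2F1, 1 was higher and 3 were lower (median −0.79). PLAT (tPA) rose in both, by 1.13 ± 0.12 and 1.03 ± 0.12 on the log2 scale (edgeR adjusted p = 3.04e-05 and 7.5e-05). PLAU (urokinase) was at 318 and 307 CPM in Control shRNA, 249 and 318 in shEZH2 and 42.3 and 36.5 in shE2F1, a log2 change of −2.99 ± 0.13 in shE2F1 (adjusted p = 4.46e-07). Its receptor PLAUR (−1.10) and S100A10 (−1.18), which binds plasminogen at the cell surface, were also called lower in shE2F1. Without Control shRNA replicate 2 the calls of PLAT (0.97) and PLAUR (−0.91) were lost in shE2F1, which left 2, and without shEZH2 replicate 1 MMP9 (5.62) was also called in shEZH2. Thus SERPINE2 and SERPINB2 rose without a called change in PLAU or PLAUR in shEZH2, and PLAU and PLAUR fell without a called change in either inhibitor in shE2F1. SERPINB2 had a log2 change of 1.58 in shE2F1 on few counts, so its lack of a call does not show that it was unchanged. Compared directly, shEZH2 exceeded shE2F1 by 2.84 ± 0.13 for PLAU (edgeR adjusted p = 1.55e-07). Plasminogen itself (PLG) had at most 0.115 CPM in any library.

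**Figure D5:**
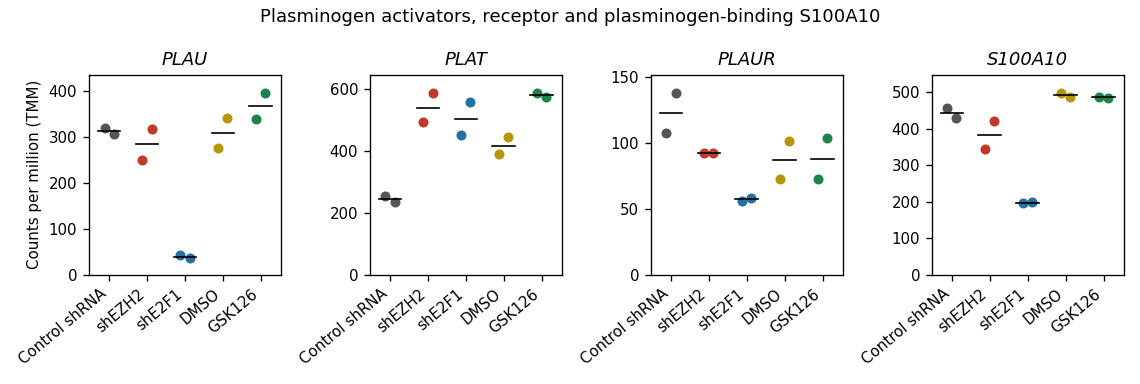
CPM, scaled by TMM, of the urokinase gene PLAU, the tissue activator PLAT, the urokinase receptor PLAUR and S100A10, with a point per library and a line at each group mean. PLAU is at 42.3 and 36.5 CPM in shE2F1 and at 249 or more in the other 8 libraries, and PLAT is higher in both knockdowns than in Control shRNA.

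For coagulation, the process in which SERPINE2 and antithrombin act on thrombin, 2 of 10 tested genes were lower in shEZH2 (median −0.32): PROCR, the protein C receptor (−1.75), and TFPI2, a Kunitz inhibitor (−1.23). In shE2F1, 3 were higher (median 0.10), TFPI2 (2.48), PROS1 (1.14) and thrombomodulin THBD (1.11), and 2 lower, TFPI (−1.33) and the protease receptor F2RL1 (−1.10). Those 5 became 3 without Control shRNA replicate 2 (PROS1 0.77 and THBD 0.92 lost), without shE2F1 replicate 2 (PROS1 and F2RL1 lost) and with effective gene lengths (PROS1 and TFPI lost). TFPI2 in shEZH2 was under 2-fold (−0.98) without Control shRNA replicate 2. For complement and kinin, the cascades that SERPING1 restrains, 2 of 7 tested genes were lower in shEZH2 (median −1.04): CFB (−1.72) and C1R (−1.04). The call of C1R was lost without Control shRNA replicate 1 (−0.78) or shEZH2 replicate 2 (−0.84), with only the 4 libraries compared and with the GC and length offset. In shE2F1, C1S (1.88), C2 (1.77) and CFB (1.23) were higher (median 1.01). Thus TFPI2 and CFB fell in shEZH2 and rose in shE2F1.

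Among cell surface and secreted serine proteases, 3 of 7 tested genes were higher in shEZH2 (median 1.09). These were FAP, with 1 count in each Control shRNA library and 10 and 19 in shEZH2, DPP4 (2.46) and matriptase ST14 (2.41). FAP passed the filter on low counts only through the shEZH2 libraries. In shE2F1, DPP4 (4.95) and ST14 (1.46) were higher and PRSS22 (−2.37) and FURIN (−1.41) lower (median −0.63). Without shE2F1 replicate 1 the calls of ST14 (1.23) and PRSS22 (−2.12) were lost, which left 2. FURIN is the target of SERPINB8, and it was higher in shEZH2 than in shE2F1 by 1.99. Among cathepsins, only some of which are targets of clade B serpins, 1 of 12 was higher, CTSS (1.55), and 2 were lower, CTSD (−1.39) and CTSF (−1.26), in shEZH2 (median −0.27), and 1 was higher in shE2F1, again CTSS (1.74, median 0.33). With the replicate block and the GC and length offset together, CTSD (−0.97) and CTSF (−0.92) lost their calls in shEZH2. In shE2F1, CTSA was also called without Control shRNA replicate 1 (1.07) or shE2F1 replicate 2 (1.03), and CTSO (−1.33) without Control shRNA replicate 2.

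Among other protease inhibitors, 1 of 11 tested genes was called in shEZH2, the cystatin CST6 (−2.08, median −0.093). In shE2F1, CST6 was again lower (−2.63), and 4 were higher (median 0.70), among them CST2 (2.75), CST4 (1.53) and the elastase inhibitor PI3, at 0 and 1 counts in Control shRNA and 26 and 25 in shE2F1. PI3 passed the filter only through shE2F1, and without shE2F1 replicate 2 its call and that of CST1 (0.74) were lost, which left 3. CST2 (−1.90) was also called in shEZH2 without shEZH2 replicate 1. Among the receptors that clear serpin-protease complexes, VLDLR (2.16) and SORL1 (1.32) were higher of 5 tested in shEZH2 (median 0.29), and VLDLR (2.24) was higher and LRP8 (−1.66) and SORL1 (−1.09) lower in shE2F1 (median −0.13). The call of SORL1 in shEZH2 was lost with the GC and length offset (0.96). Among 18 collagen folding partners of SERPINH1, 4 were higher in shEZH2 (median 0.059), led by COL5A2 (2.35), COL1A1 (1.49) and the lysyl hydroxylase PLOD2 (1.22), and PLOD1 (−1.11) was lower. With the GC and length offset, PLOD2 (0.84) and PLOD1 (−0.76) were under 2-fold and their calls were lost. In shE2F1, COL5A2 (1.20) was higher and PPIB (−1.62) and COL4A1 (−1.28) lower (median −0.43). SERPINH1 itself was not called in any comparison. The fibroblast marker list, 5 genes including COL1A1, summed to 28.0 and 38.2 TPM in shEZH2 and to 9.58 to 13.5 TPM in the other 8 libraries, while its member DCN was at 0 in all.

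In GSK126 against DMSO, edgeR called none of the 75 listed genes tested, 14 had an unadjusted p under 0.05, and DESeq2 called 1, TFPI2. edgeR also called TFPI2 with each of the 4 libraries left out (log2 changes 1.01 to 1.23), and the complement gene C3 (1.32) without GSK126 replicate 2. In shEZH2 against shE2F1, 1 of 6 plasminogen activation genes was higher, 1 of 10 coagulation genes higher and 4 lower, and 5 of 7 complement and kinin genes lower. The same comparison gave 3 higher and 1 lower of 7 serine proteases, 3 lower of 12 cathepsins, 5 lower of 11 other inhibitors, 2 higher of 5 clearance receptors and 5 higher of 18 collagen partners. Without shE2F1 replicate 1, the coagulation genes, the complement and kinin genes and the other inhibitors held 3 calls each. Without shE2F1 replicate 2, the other inhibitors held 2 and the plasminogen activation genes 2, and without shEZH2 replicate 1 the plasminogen activation genes held 3. In the difference between the shEZH2 and GSK126 effects, the lists held 0 to 2 calls each, 5 of them higher and 6 lower in all. Among these, CFB was no longer called without Control shRNA replicate 1 or either shEZH2 library, and CTSF without shEZH2 replicate 2. The call of SORL1 was lost without Control shRNA replicate 2, either shEZH2 library, DMSO replicate 1 or GSK126 replicate 2.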

How the data were processed

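RNA-seq libraries were made with a directional poly(A) kit. The authors mapped reads to hg38 (Ensembl 108) with STAR (2.7.2b in the submitters' processing notes) and quantified genes with RSEM 1.3.1. Strand use in counting is not given in the sources used here. The deposited expected counts, the deposited TPM values (scaled by the authors for effective length) and RSEM's effective lengths and posterior SDs were used.

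Of 18 sample records, 8 repeated another record's values, which left 10 libraries. Symbols came from GENCODE 44 (62625 of 62703 identifiers matched). Expected counts were rounded, filtered (filterByExpr), TMM-scaled and tested with edgeR 4.0.16 (R 4.3.3, glmQLFit and glmQLFTest), in fits of the 6 hairpin, the 4 drug or all 10 libraries, and p-values were adjusted (Benjamini-Hochberg) over every gene in a fit. The procedure was tested on simulated data. Alternatives were DESeq2 1.42.0 or its size factors, no filter or a mean of 50 counts, a replicate block, GC and length splines (5 df), effective lengths, other sets of libraries, an adjusted p under 0.05 without a fold, and each library left out. Depths of 13198932 to 20055550 counts limit members with few counts.

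The members and gene lists were chosen with earlier results of these data known. Of the members 1, and of the listed genes 2, are not reported here. Levels were given for every member, and fold change, SE and adjusted p where a member was called or, with GSK126, for the 3 smallest unadjusted p. The 8 members of highest mean TPM were given in every library. The lists named called genes, at most 3 per list and direction.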

Additional observations from a re-analysis of the deposited data

Results flagged for a closer look

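In 2 serpins the effect of the EZH2 hairpin differed from that of GSK126 by a test of the difference itself, in the edgeR fit of all 10 libraries. The log2 difference of the effects was 2.30 for SERPINB7 (0.25 with GSK126, 2.53 with shEZH2) and −1.10 for SERPINB1 (−0.08 and −1.19). In SERPINB1, both shEZH2 libraries lay below the other 8. The groups held 2 libraries each, too few to look for a library far from the others within a group.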

How the results depend on the processing

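With an adjusted p under 0.05 and no requirement on fold, 9 members were called in shEZH2, 6 in shE2F1, 8 in shEZH2 against shE2F1 and 7 in the difference between the shEZH2 and GSK126 effects. The share of all genes at this rule was not computed, so these counts show nothing particular to serpins. At an unadjusted edgeR p under 0.05 there were 9, 8 and 10 of 12 members in the hairpin comparisons, in that order, and 9 of 13 in the difference. Over all genes there were 9310, 8113 and 9873 of 15373, and 7251 of 15773 in the difference. Without a filter on low counts, 4 members were called in the difference of effects, SERPINA1 and SERPINA3 being added, among 2725 genes called in all. With effective lengths 1 member was called, SERPINB1 being lost, among 1726 genes. With each library left out in turn, 1 to 2 members were called in shE2F1 and 1 to 3 in the difference of effects. The number of members called was within 1.5 times the reported number in 68 of 76 alternatives, and 194 of 206 fold changes kept their direction and their call, as did 498 of 568 list counts within that range. No fold change reversed. The losses were those of SERPINE2, SERPINA1, SERPINI1 and SERPINB1 given in the text, and the cause was not tested except for the fewer libraries of the omissions.

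The replicate block used the shared replicate numbers, which no label ties to a shared batch or day. Over 11919 genes, the difference between replicates 1 and 2 correlated between DMSO and GSK126 (r = 0.63) and by −0.06 to 0.22 between the other pairs of groups. With the replicate block, GSK126 against DMSO gave 68 called genes, none of them a member, where the unpaired fit gave 0. TFPI2 of the coagulation list was among them (log2 change 1.12), also with the GC and length offset (1.14). The adjusted p of 4 members was then under 0.05, as was that of 1990 of all 14632 genes tested. The 4 were SERPINE2 (log2 change 0.56), SERPING1 (1.79), SERPINA3 (1.08) and SERPINA1 (0.37). SERPING1 had passed the filter on low counts only through GSK126. Each omission of a library left a lone library that is assumed to vary like the other groups.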
